A study of Mus musculus with 6 samples.

Results

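The hepatocyte identity transcription factors described here are the 9 genes Hnf4a, Foxa1, Foxa2, Foxa3, Cebpa, Cebpb, Nr5a2, Onecut1 and Prox1, which were found by symbol among the 53715 genes of the deposited count table through their Ensembl IDs, each with a single row. All 9 had enough counts to enter the comparison, as did 13022 genes in all. Liver RNA came from 8-week-old male F1 mice of the ICR strain, an outbred stock, in 3 control F1 and 3 FR F1 libraries. The labels give the stress of the FR F1 group as paternal famine and that of the other group as control, do not spell out FR, and stand under a series title that names an overdiet, so the label names are kept. The comparison asks whether liver transcripts differ between offspring of exposed and of control fathers. Both groups share strain, sex, tissue and age, the mice themselves were not labelled as exposed, and the labels do not say whether a library is a single animal, so p-values measure the spread between these samples only. Library totals ran from 2279755 to 2730160 counts.

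These factors form the core of the transcriptional network that specifies hepatocytes in the embryo and maintains them in the adult, and they bind many of the same enhancers and each other's genes. FOXA proteins are forkhead pioneer factors that can bind closed chromatin, HNF4A and LRH-1 (encoded by Nr5a2) are nuclear receptors, and C/EBPα and C/EBPβ are basic leucine zipper factors that recognise the same DNA sequence. HNF6 (encoded by Onecut1) is a cut-homeodomain factor shared by hepatocytes and bile duct cells, and PROX1 is a homeodomain factor that acts largely as a corepressor in hepatocytes.

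None of the 9 genes passed the main test over all genes, in edgeR at an adjusted p under 0.05, while DESeq2 called Cebpb and Foxa3. The 4 that came nearest were Foxa3, Hnf4a, Cebpb and Foxa2. Foxa3 and Hnf4a had lower values in every FR F1 library than in any control F1 library, and Cebpb and Foxa2 higher values. Over all tested genes, 25.7% did not overlap between groups, edgeR called 0.837% and DESeq2 called 3.51%. Foxa3 had 1.90-fold lower and Cebpb 2.45-fold higher fitted levels in FR F1 livers. Within libraries, Foxa3 made up 59.1% to 71.6% of Foxa counts per kb in control F1 and 30.5% to 50.5% in FR F1 livers. Cebpa, Prox1, Nr5a2, Foxa1 and Onecut1 overlapped between groups.

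The stretches before the start sites of Foxa2, Foxa3, Cebpa, Cebpb and Hnf4a, on which the results below turn, are shown to place their promoters. They are RefSeq sequences on GRCm38.p6 (the assembly of mm10), 200 bases each, ending at the base before the start site and written 5′ to 3′ on the gene's strand. Capitals mark matches to any of 9 words, searched on both strands over 250 bases before each start, overlaps allowed. The words were TGTTTAC for FOXA, TTNCNNAA for C/EBP, CAAAGTC for HNF4, GTTAAT for HNF1, ATCAAT for HNF6, AAGGTCA for LRH-1, CACGTG for the E-box, TTANGTAA for the D-box and TATAAA for the TATA box. None of the stretches lies in an annotated exon.
Foxa2, outermost of 3 start sites, chr2:148046970-148047169, minus strand: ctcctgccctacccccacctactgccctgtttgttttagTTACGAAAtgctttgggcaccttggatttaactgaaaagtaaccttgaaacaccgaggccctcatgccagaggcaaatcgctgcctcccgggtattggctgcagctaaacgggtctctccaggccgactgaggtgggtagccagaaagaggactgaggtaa
Foxa3, chr7:19023540-19023739, minus strand: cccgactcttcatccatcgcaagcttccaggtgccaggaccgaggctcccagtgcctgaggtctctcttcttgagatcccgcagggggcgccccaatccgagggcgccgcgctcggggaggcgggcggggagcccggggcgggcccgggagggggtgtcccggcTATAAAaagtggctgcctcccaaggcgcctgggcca
Cebpa, chr7:35119093-35119292, plus strand: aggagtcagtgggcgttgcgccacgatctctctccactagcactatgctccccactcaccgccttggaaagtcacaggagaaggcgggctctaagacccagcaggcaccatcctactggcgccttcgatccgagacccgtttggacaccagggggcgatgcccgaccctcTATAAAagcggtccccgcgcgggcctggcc
Cebpb, chr2:167688715-167688914, plus strand: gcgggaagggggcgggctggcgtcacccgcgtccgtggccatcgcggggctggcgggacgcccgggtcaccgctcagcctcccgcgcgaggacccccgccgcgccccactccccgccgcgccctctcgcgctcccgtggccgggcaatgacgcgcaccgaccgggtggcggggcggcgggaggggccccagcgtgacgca
Hnf4a, downstream start site, chr2:163546955-163547154, plus strand: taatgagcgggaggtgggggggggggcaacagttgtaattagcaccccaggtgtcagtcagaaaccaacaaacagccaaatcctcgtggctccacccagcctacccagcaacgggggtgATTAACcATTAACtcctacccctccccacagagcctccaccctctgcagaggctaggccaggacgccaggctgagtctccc

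Foxa3 and Cebpa each have a TATA box word, at bases -36 to -31 and -30 to -25 from the start, a word held by 12.4% of the 32851 RefSeq windows. The printed Foxa2 stretch, before the outermost of 3 RefSeq start sites, has a C/EBP word, held by 36.8% of windows. The searched window of this start also has an HNF6 word, at bases -213 to -208, beyond the printed stretch. The window of the innermost Foxa2 start has an HNF1 word and no C/EBP word, and its TATA box word lies at bases -208 to -203. The stretch before the downstream Hnf4a start has a pair of HNF1 words, held by 6.43% of windows at least once. The printed Cebpb stretch has none of the 9 words. Over the 14 windows of the 9 genes, the FOXA word was found in 1 (3.17% of all windows), and the HNF4, LRH-1 and D-box words in 0. The FOXA word lay at bases -141 to -135 before the RefSeq start of Foxa1. This start lies 805 base pairs inside the annotated gene, and the 200 bases before it overlap an annotated Foxa1 exon. The C/EBP and TATA box words were each found in 5, the HNF1 word in 3, the HNF6 word in 2 and the E-box word in 1. Over all windows the shares were 36.8%, 12.4%, 6.43%, 6.72% and 6.02% in that order, and the differences were not tested. Of the 14 windows, 8 had an observed over expected CpG ratio of at least 0.6, against 34.0% of all windows. The ratio was 0.985 for Cebpb and 0.193 for the downstream Hnf4a start, and the 3 Foxa2 starts had 0.376, 0.732 and 0.73 from the outermost inward, so CpG-rich and CpG-poor promoters stand side by side in the set. Counts were given per gene, and transcripts from the alternative Hnf4a starts were not separated.

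The level of each factor was set against exon length to rank the genes, as TMM-normalised CPM (counts scaled to a common library size) per kb of merged exons (n = 3 per group). In control F1 livers Hnf4a (129 ± 2.86, mean ± SD) and Cebpa (127 ± 14.0) stood at the top and overlapped. Foxa3 followed at 70.2 ± 3.08 with no overlap with its neighbours on either side. Prox1 (25.4 ± 1.74), Foxa2 (24.9 ± 5.75), Nr5a2 (19.9 ± 2.92), Foxa1 (14.2 ± 6.49), Cebpb (12.7 ± 6.53) and Onecut1 (6.44 ± 4.399) each overlapped with the next in order. In FR F1 livers the order by mean was Cebpa (129 ± 18.5), Hnf4a (100.9 ± 11.2), Foxa2 (40.5 ± 7.28), Foxa3 (37.0 ± 9.89), Cebpb (31.1 ± 6.79), Prox1 (28.9 ± 3.59), Nr5a2 (24.6 ± 4.53), Foxa1 (20.3 ± 5.61) and Onecut1 (5.05 ± 3.14). There the only neighbours that did not overlap were Hnf4a and Foxa2, and Foxa1 and Onecut1. By mean, Foxa2 thus stood below Foxa3 and Prox1 in control F1 livers and above both in FR F1 livers, and Cebpb moved past Foxa1, Nr5a2 and Prox1, a change of order that was not tested. Over all libraries Cebpa stood at percentile 97.4 and Hnf4a at 96.8 of the 11516 tested protein-coding genes on this scale, while Onecut1 stood at percentile 33.0. In CPM not divided by length, the abundant liver gene Ttr had 309 ± 26.1 in control F1 livers, below Hnf4a at 623 ± 13.8 (SD). Whether duplicate reads were removed is not stated, so levels and ranks compared between genes are uncertain.

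**Figure D1:**
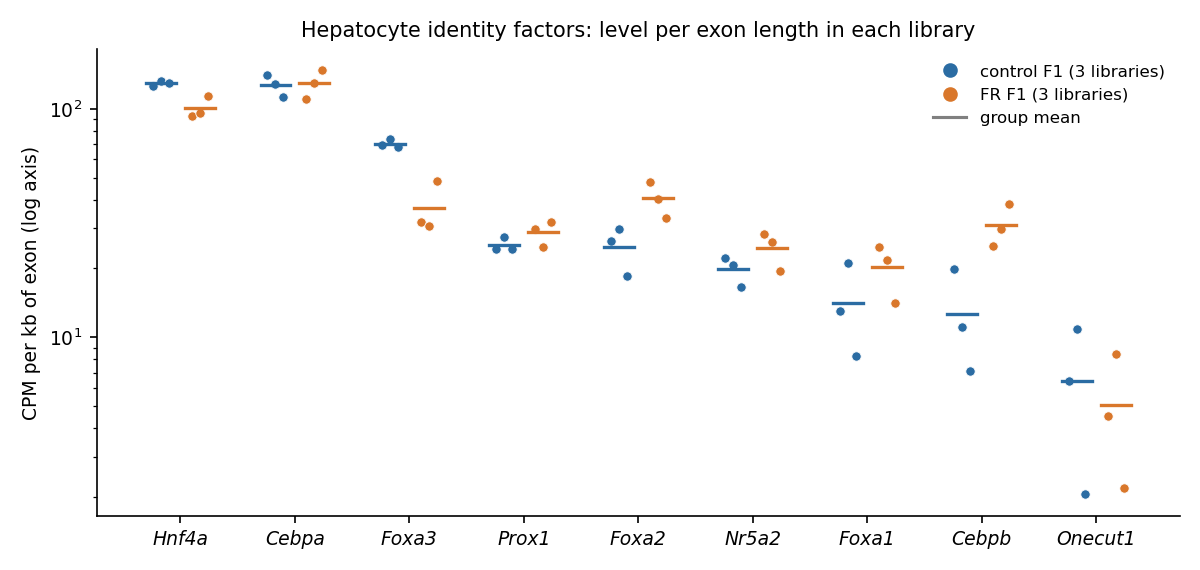
TMM-normalised CPM per kb of exon (log axis) of the 9 factors in each of 3 control F1 (blue) and 3 FR F1 (orange) libraries, with bars for group means, ordered by the control F1 mean. Foxa3 goes from 70.2 in control F1 to 37.0 in FR F1 livers and Cebpb from 12.7 to 31.1, while the Onecut1 points of both groups spread widely.

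The test across all genes was edgeR's quasi-likelihood F test with p adjusted over 13022 genes. It called 0 of the 9 factors at an adjusted p under 0.05, where 0.837% of all tested genes were called. At an unadjusted p under 0.05 there were 4 of 9 (Foxa3, Cebpb, Hnf4a and Foxa2), against 17.9% of tested genes. The groups did not overlap in the same 4 of 9, against 25.7% of tested genes, and with 9 genes these shares describe the set and are no test of it. DESeq2 called 2 of the 9, Cebpb and Foxa3, against 3.51% of tested genes, and limma-voom called 0, against 0.791%. With sample weights limma-voom called 3 of the 9, adding Hnf4a, against 9.21% of tested genes. With no filter on low counts edgeR called 3, Cebpb, Foxa3 and Foxa2, against 4.04% of 30930 genes. The median log2 fold change, FR F1 minus control F1, was 0.19 over the 9 factors and 0.00 over all tested genes, and the median absolute value was 0.35 against 0.27.

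**Figure D2:**
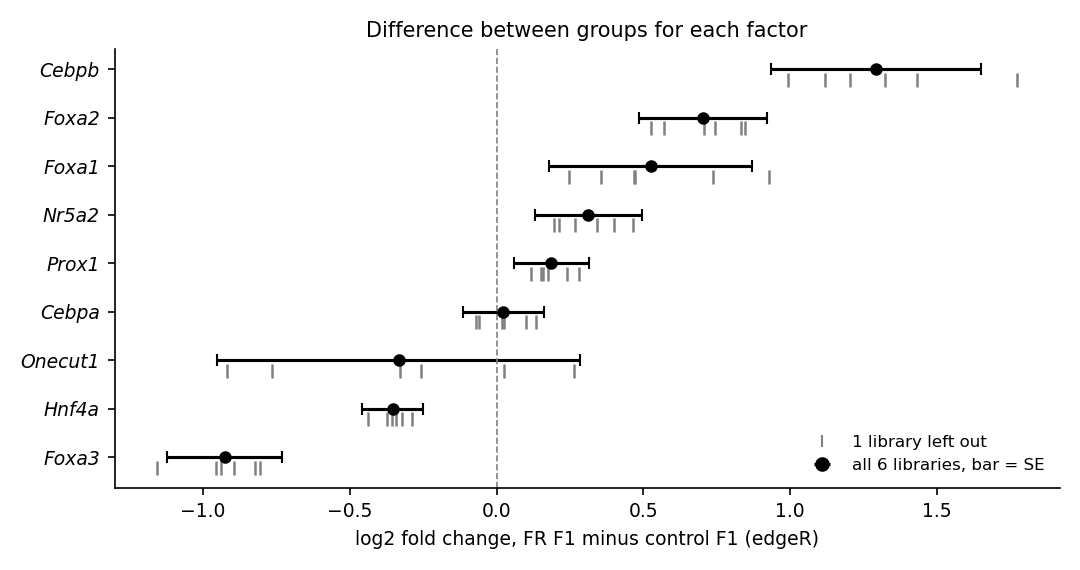
Log2 fold change of each factor (edgeR, FR F1 minus control F1), with black points and SE bars for all 6 libraries and grey ticks for the fits that leave out 1 library. Foxa3 (-0.93) and Hnf4a (-0.35) stayed below 0 and Cebpb (1.29) and Foxa2 (0.70) above 0 in each of these fits, while the ticks of Cebpa and Onecut1 fall on both sides.

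Among the forkhead genes, Foxa3 encodes the FOXA protein known from mouse studies as a regulator of glucose transporter and gluconeogenic genes in adult liver. Foxa3 (ENSMUSG00000040891.6, chromosome 7, 19013284 to 19023538) had 141, 150 and 138 CPM in the control libraries, replicates 1 to 3 in order, and 65.1, 62.3 and 98.5 CPM in the FR libraries in the same order. All FR F1 libraries lay below all control F1 libraries, and FR replicate 3 lay nearest to them. The log2 fold change was -0.93 ± 0.19 (SE, adjusted p = 0.0806), the smallest p of the 9. The adjusted p was 0.0488 without FR replicate 3, with a log2 fold change of -1.16, and 0.00446 with DESeq2. Over all alternatives run the adjusted p lay between 9.65e-05 and 0.293.

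Foxa2, which encodes a pioneer factor needed with FOXA1 to start liver development (ENSMUSG00000037025.11, chromosome 2, 148042877 to 148046969), had 62.4, 70.8 and 44.1 CPM in the control F1 libraries and 114, 95.1 and 79.2 CPM in the FR F1 libraries. The groups did not overlap, control replicate 2 and FR replicate 3 being the nearest. The fitted log2 difference was 0.70 ± 0.22 (SE, adjusted p = 0.173; 0.0274 to 0.456 over the alternatives, the lowest with no filter). Foxa1 (ENSMUSG00000035451.7, chromosome 12, 57540628 to 57546916), its partner, had 43.4, 70.3 and 27.6 CPM in the control F1 libraries and 83.0, 72.6 and 46.8 CPM in the FR F1 libraries. The groups overlapped, and the highest control value was 2.55 times the lowest, for an estimated log2 difference of 0.53 ± 0.35 (SE, adjusted p = 0.444).

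Shares within the Foxa trio need no scaling between libraries. Foxa3 held 63.7%, 59.1% and 71.6% of Foxa counts per kb in the control libraries and 30.5%, 33.1% and 50.5% in the FR libraries. It was the leading Foxa transcript in each control library and in FR replicate 3, and Foxa2 led in FR replicates 1 and 2. The mean difference of the Foxa3 share was -26.8 percentage points, in an exact two-sided permutation test p = 0.1, the smallest that 3 against 3 libraries allow. Foxa2 held 24.3%, 24.0% and 19.7% in control F1 and 45.7%, 43.4% and 34.9% in FR F1 libraries, a difference of 18.7 points (exact permutation p = 0.1, again the smallest possible). A lower share of Foxa3 means a higher share of the other Foxa genes together, so the tests of the shares are not independent. The share of Foxa1 overlapped between groups, with 12.6% ± 4.12 in control F1 and 20.7% ± 5.21 in FR F1 livers (SD, n = 3 per group, exact permutation p = 0.2). The Foxa2 over Foxa3 ratio per kb was 0.381, 0.405 and 0.275 in control F1 and 1.502, 1.31 and 0.691 in FR F1 libraries. The summed Foxa level on the CPM per kb scale, by library totals, was 96.1 to 121 in control F1 and 92.0 to 105 in FR F1 libraries, ranges that overlap.

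**Figure D3:**
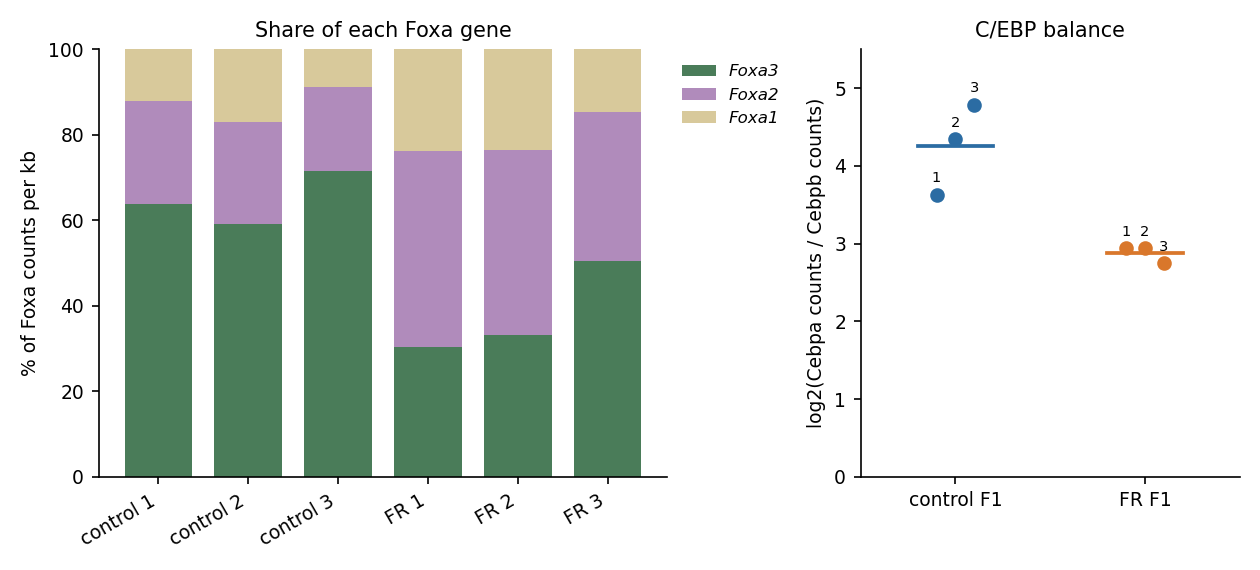
Left, share of Foxa1, Foxa2 and Foxa3 in the Foxa counts per kb of exon of each library, in percent. Right, log2 ratio of Cebpa to Cebpb counts in each library with the replicate number above each point and bars for group means. Foxa3 takes 59.1% or more in each control library and 50.5% or less in each FR library, and the C/EBP ratio is 3.63 to 4.79 in control F1 and 2.74 to 2.94 in FR F1 libraries.

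Of the C/EBP genes, Cebpa encodes the factor that holds hepatocytes in a quiescent, metabolic state. Cebpa (ENSMUSG00000034957.10, chromosome 7, 35119293 to 35121928) had 370, 338 and 296 CPM in the control F1 libraries and 290, 342 and 388 CPM in the FR F1 libraries. These values overlapped across their whole range, with an estimated log2 difference of 0.02 ± 0.14 (SE, adjusted p = 0.941). Cebpb, whose product is induced in acute phase and regeneration responses (ENSMUSG00000056501.3, chromosome 2, 167688915 to 167690418), had 29.9, 16.7 and 10.7 CPM in the control F1 libraries and 37.8, 44.6 and 57.9 CPM in the FR F1 libraries. The groups did not overlap, and control replicate 1 lay nearest to the FR F1 libraries. The log2 fold change was 1.29 ± 0.36 (SE, adjusted p = 0.141), resting on 28 to 141 counts per library. Without control replicate 1 it was 1.77 with an adjusted p of 0.0250, and with DESeq2 the adjusted p was 0.0358. Over all alternatives run the adjusted p lay between 0.000266 and 0.351.

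There were 12.4, 20.3 and 27.6 Cebpa counts per Cebpb count in the control libraries and 7.68, 7.68 and 6.70 in the FR libraries. The log2 ratio was 4.25 ± 0.58 in control F1 and 2.88 ± 0.11 in FR F1 livers (SD, n = 3 per group), a difference of -1.38 (exact permutation p = 0.1, the smallest possible). The FR F1 libraries lay close together and the control F1 libraries spread more widely. On the other strand Tmem189 shares 312 of the 1504 exonic base pairs of Cebpb, and its own log2 fold change was 0.42 ± 0.19 (SE, adjusted p = 0.290). Whether counting used strand is not stated, so reads of the shared stretch cannot be told apart. Cebpa shares 51 exonic base pairs with the antisense gene Gm45091, which had 6.76 to 9.97 CPM in the control F1 libraries and 10.5 to 19.7 CPM in the FR F1 libraries.

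Hnf4a encodes the nuclear receptor that binds many hepatocyte genes, from apolipoproteins to clotting factors. Hnf4a (ENSMUSG00000017950.16, chromosome 2, 163506808 to 163572910) had 609, 636 and 624 CPM in the control F1 libraries and 448, 465 and 549 CPM in the FR F1 libraries. The control F1 libraries lay within 1.05-fold of each other and above all FR F1 libraries. The log2 fold change was small, at -0.35 ± 0.10 (SE, adjusted p = 0.153), which is 1.28-fold lower. Its antisense neighbour Hnf4aos, which shares no exonic base with it, had an estimated log2 difference of 0.14 ± 0.31 (SE, adjusted p = 0.824).

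Nr5a2, the LRH-1 gene, acts in bile acid and cholesterol metabolism (ENSMUSG00000026398.14, chromosome 1, 136842571 to 136960448). It had 131, 123 and 97.8 CPM in the control F1 libraries and 166, 154 and 115 CPM in the FR F1 libraries. FR replicate 3 lay within the control range, and the log2 fold change was 0.31 ± 0.18 (SE, adjusted p = 0.392). Prox1 (ENSMUSG00000010175.13, chromosome 1, 190118035 to 190170714) had 205, 230 and 204 CPM in the control F1 libraries and 249, 209 and 268 CPM in the FR F1 libraries. FR replicate 2 lay within the control range, for an estimated log2 difference of 0.19 ± 0.13 (SE, adjusted p = 0.462). The antisense gene Prox1os, which shares 133 exonic base pairs with Prox1, had 2.05 CPM in FR replicate 3 and 14.3 to 22.1 CPM in the other 5 libraries, while Prox1 in FR replicate 3 was the highest of all.

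Onecut1, the HNF6 gene (ENSMUSG00000043013.10, chromosome 9, 74861921 to 74891781), varied most within groups. It had 26.5, 44.6 and 8.44 CPM in the control F1 libraries and 18.7, 34.6 and 9.03 CPM in the FR F1 libraries, a 5.29-fold and a 3.84-fold range. The groups covered nearly the same span, and the log2 fold change was -0.33 ± 0.62 (SE, adjusted p = 0.792), an error too wide to tell a decrease from an increase. It was 0.26 without control replicate 2 and 0.02 without FR replicate 3, so its direction depended on those libraries. The annotation places the gene Gm20649 on the same strand over 2171 of the 4113 exonic base pairs of Onecut1. Gm20649 had 0 counts in each library. The sources do not state how reads in shared stretches were counted, so the Onecut1 level per kb is uncertain. Foxa1, Foxa2, Nr5a2 and Onecut1 each had their lowest control value in control replicate 3 and their lowest FR value in FR replicate 3.

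Paralogs, which share the DNA-binding domains of these factors, were read beside them. Of 9 paralogs, 5 were tested and 0 passed in edgeR, DESeq2 or limma-voom, with 0 at an unadjusted p under 0.05 and a median log2 fold change of 0.15. Onecut2 had 146 ± 62.9 CPM in the control F1 livers and 209 ± 22.3 CPM in the FR F1 livers (SD, n = 3 per group) at an estimated log2 difference of 0.52 ± 0.30 (SE, adjusted p = 0.386). Cebpd, a stress-responsive C/EBP gene, had 0.43 ± 0.32 (SE, adjusted p = 0.495). Of 16 other hepatocyte transcription factors edgeR and limma-voom called 0. DESeq2 called 2, Nr2f6 and Klf15, against 3.51% of all tested genes. At an unadjusted edgeR p under 0.05 there were 4 of 16, against 17.9% of all tested genes. The list had a median of -0.12. In edgeR the smallest p values were those of Nr2f6, an orphan receptor gene, at 0.69 ± 0.14 (SE, adjusted p = 0.0768), and Klf15, a Krüppel-like factor gene of amino acid and glucose metabolism, at -0.73 ± 0.16 (SE, adjusted p = 0.0910). Of 10 cofactors and inhibitors edgeR and limma-voom called 0 and DESeq2 called 1, Nr0b2. The median was 0.06. Beside 17.9% of all tested genes, those at an unadjusted edgeR p under 0.05 were 2 of 10. They were Nr0b2, whose product SHP represses LRH-1 and HNF4A, at 0.85 ± 0.22 (SE, adjusted p = 0.128), and Trib1, a pseudokinase gene whose product promotes degradation of C/EBPα, at -0.50 ± 0.16 (SE, adjusted p = 0.179).

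Genes known as targets of the factors were read from the same fit. Over the 5 target lists, which hold 35 genes with each counted once, edgeR called 3 lower and 0 higher in FR F1 livers, where it called 0.837% of all tested genes. Of the 35, 12 had an unadjusted edgeR p under 0.05, against 17.9% of all tested genes. The lists were chosen with earlier results of these data known, so these shares describe them and are no test of them. The estimates were negative in 24 and positive in 11, with a median log2 fold change of -0.20. DESeq2 called 6 lower and 1 higher, and limma-voom 3 lower and 0 higher. Of all tested genes they called 3.51% and 0.791%. In the LRH-1 list (median -0.34, 5 at an unadjusted p under 0.05) 2 of 8 genes passed, Abcg5 and Abcg8, which together encode the sterol exporter of the canalicular membrane. Abcg5 had 299 ± 26.9 CPM in the control F1 livers and 173 ± 13.2 CPM in the FR F1 livers (SD, n = 3 per group), and fell by 0.79 on the log2 scale (SE 0.12, adjusted p = 0.0385). Abcg8 had 337 ± 31.2 and 205 ± 15.7 CPM and fell by 0.72 (SE 0.12, adjusted p = 0.0414). In the same list Cyp7a1, which encodes the enzyme that sets the rate of bile acid synthesis, had -1.93 ± 0.47 (SE, adjusted p = 0.112), and Cyp8b1, another enzyme gene of that pathway, 0.03 ± 0.09 (SE, adjusted p = 0.861). DESeq2 called 4 genes of this list lower, Cyp7a1 and the hepatic HDL receptor gene Scarb1 among them, and 1 higher, Nr0b2, which is also on the inhibitor list.

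Over all tested genes edgeR called 0.837% and DESeq2 3.51%, and 17.9% had an unadjusted edgeR p under 0.05. In the C/EBP list (median -0.26, 5 at an unadjusted p under 0.05) 1 of 11 genes passed. Gys2, the liver glycogen synthase gene, had 332 ± 38.2 CPM in the control F1 livers and 169 ± 20.2 CPM in the FR F1 livers (SD, n = 3 per group) and fell by 0.97 on the log2 scale (SE 0.14, adjusted p = 0.0319). Each of the calls of Gys2, Abcg5 and Abcg8 ended without FR replicate 1, 2 or 3, without control replicate 2 and with the replicate block, and their adjusted p reached 0.168, 0.178 and 0.193 at most. None of 14 HNF4A targets passed in edgeR, DESeq2 or limma-voom (median -0.02, 2 at an unadjusted p under 0.05), the smallest p being that of the clotting factor gene F7 at -0.37 ± 0.11 (SE, adjusted p = 0.152), followed by Apoa4 at -0.35 ± 0.14 (SE, adjusted p = 0.241). Of 7 FOXA targets edgeR and limma-voom called 0 and DESeq2 called 1, Pck1, which the C/EBP list holds too (median -0.32, 3 at an unadjusted edgeR p under 0.05). The list includes Pck1, a gluconeogenic enzyme gene, at -0.54 ± 0.11 (SE, adjusted p = 0.0804) and Alb, the serum albumin gene, at -0.32 ± 0.11 (SE, adjusted p = 0.190). None of 5 HNF6 targets passed with any of these tools (median 0.01, 0 at an unadjusted p under 0.05), with Pfkfb1, a glycolysis regulator gene, at -0.37 ± 0.33 (SE, adjusted p = 0.564). The deposited counts reached 1 per exonic base pair in 21 tested genes only. Per exonic base pair of the longest transcript, 12 of the 35 targets reached at least 0.5, with Alb at 1.14. Whether duplicate reads were removed is not stated, so fold changes of these abundant genes are uncertain. The 9 factors stayed at or below 0.373, which does not show that their own values were unaffected.

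**Figure D4:**
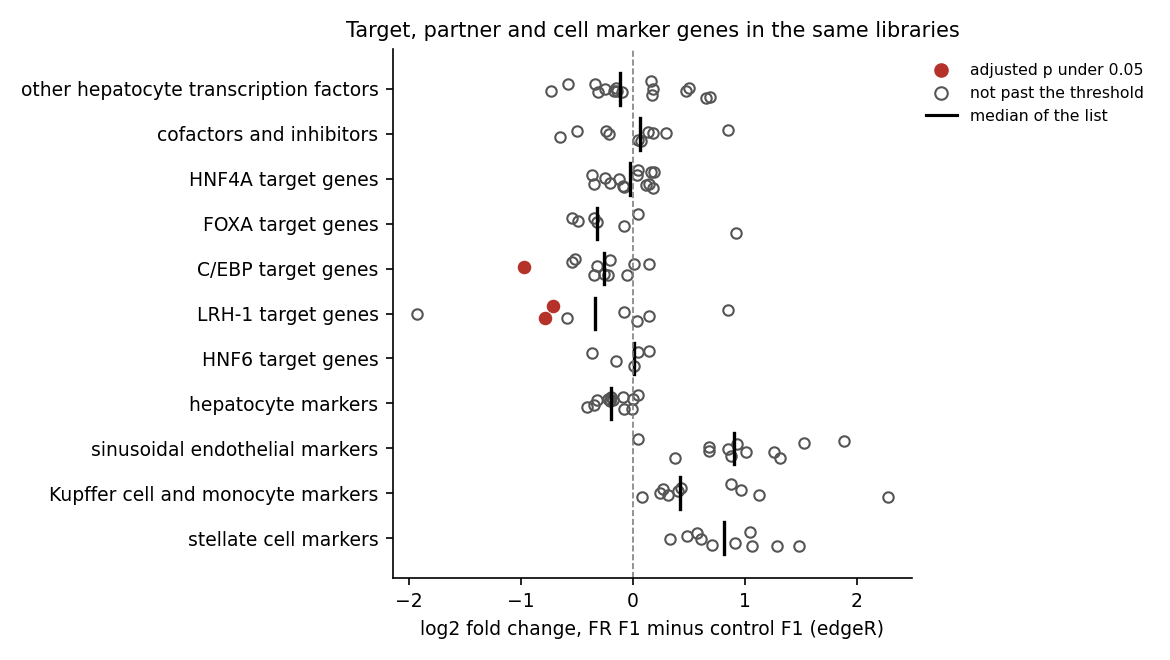
Log2 fold change (edgeR, FR F1 minus control F1) of the tested genes of 11 lists, 1 circle a gene, red where the adjusted p is under 0.05, with a black bar at the median of each list. Abcg5, Abcg8 and Gys2 are the only red points, and the sinusoidal endothelial list sits to the right with a median of 0.90.

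The hepatocyte label was checked on 13 hepatocyte markers, all of which had counts, with a summed level of 6195 to 7346 CPM in the control F1 libraries and 5769 to 6520 CPM in the FR F1 libraries. None passed in edgeR, DESeq2 or limma-voom, and the median log2 fold change was -0.20. At an unadjusted edgeR p under 0.05 there were 2 of 13, against 17.9% of all tested genes. Of the 13, 11 reached at least 0.5 counts per base pair of the longest transcript, so their fold changes are uncertain too. The estimates were negative in 12 and positive in 1. In bulk liver RNA, fewer cells of a type and less RNA per cell cannot be told apart. Of 5 fetal liver genes only Afp was tested, at -0.49 ± 0.29 (SE, adjusted p = 0.406), and Igf2 had 0 counts in all libraries.

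Several factors are also used by other cells, whose markers were read beside them. DESeq2 and limma-voom, like edgeR, called 0 cholangiocyte, Kupffer cell and monocyte, neutrophil, B cell, adipocyte and acinar markers. FOXA2, HNF6 and other factors of the set are present in bile duct cells. Of 8 cholangiocyte markers 2 were tested and 0 passed, 1 having an unadjusted edgeR p under 0.05, against 17.9% of all tested genes. None of the 8 was at 0 in all libraries, and the list had 79.3 to 98.9 summed CPM in FR F1 and 46.9 to 141 in control F1 libraries. Most of that sum was Spp1, the osteopontin gene, which had 120 CPM in control replicate 3. Without Spp1, a gene set aside after its values were seen, the sums were 12.6, 14.4 and 21.1 CPM in the control and 34.4, 29.1 and 25.9 CPM in the FR libraries, with no overlap. Sox9, a biliary factor gene, had 13.5 to 16.5 CPM in FR F1 and 5.86 to 10.4 CPM in control F1 libraries, at an estimated log2 difference of 0.96 ± 0.32 (SE, adjusted p = 0.192). Krt19 had 2.58 to 3.69 and 0.451 to 1.30 CPM, and Cd24a 3.69 to 6.73 and 0.767 to 3.61 CPM, and neither was tested. Krt7, Epcam, Cftr and Tspan8, not tested either, overlapped between groups. Their group means were 2.316, 2.996, 0.2493 and 1.523 CPM in FR F1 and 2.102, 1.612, 0.4059 and 1.479 CPM in control F1 livers. The part of bile duct cells in the Foxa2 values was not tested.

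Macrophages and neutrophils transcribe Cebpb. Of 11 Kupffer cell and monocyte markers 10 were tested and 0 passed. An unadjusted p under 0.05 was found in 3, against 17.9% of all tested genes. The estimates were positive in 10 of 10, with a median of 0.42, and the list had 377 to 711 summed CPM in FR F1 against 294 to 560 in control F1 libraries. The leading markers Clec4f and Cd5l had 0.24 ± 0.26 and 0.43 ± 0.36 (SE, adjusted p = 0.630 and 0.546), while Ccr2, a monocyte receptor gene, had 2.28 ± 0.77 (SE, adjusted p = 0.198). Adgre1, which encodes the macrophage marker F4/80, had 9.11, 3.61 and 12.7 CPM in the control and 20.6, 16.95 and 18.5 CPM in the FR libraries, with no overlap, at 1.12 ± 0.40 (SE, adjusted p = 0.214). Vsig4, a Kupffer cell complement receptor gene, had 0.88 ± 0.36 (SE, adjusted p = 0.257). Among 7 neutrophil markers S100a9 was tested, at 1.24 ± 0.45 (SE, adjusted p = 0.216), and the list summed to 5.86 to 11.5 and 6.63 to 11.6 CPM in control F1 and FR F1 libraries. Adipocytes use both C/EBP genes. Of 6 adipocyte markers 3 were tested and 0 passed, 2 having an unadjusted p under 0.05, with 156 to 210 summed CPM in FR F1 and 190 to 269 in control F1 libraries. Most of that sum was Adrb3, a beta-adrenergic receptor gene, at 127 to 183 CPM in FR F1 and 164 to 241 CPM in control F1 libraries. Without it the sums were 26.5 to 29.1 and 23.4 to 28.9 CPM. Adipoq, a defining adipocyte gene, had 0 counts in each control library and 0.369 to 1.12 CPM in FR libraries, and Plin1 and Lep had 0 in each FR library. In that list Fabp4, which endothelial cells also express, had 1.30 ± 0.37 (SE, adjusted p = 0.153) and Cidec, a lipid droplet gene also found in hepatocytes, -1.28 ± 0.40 (SE, adjusted p = 0.176). The part of these cells in the Cebpb values was not tested.

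PROX1 also marks lymphatic endothelium. Of 5 lymphatic markers 2 were tested and 0 passed in edgeR and limma-voom. Reln had 1.05 ± 0.19 (SE, edgeR adjusted p = 0.0588) and was called by DESeq2, which called 3.51% of all tested genes. Flt4 had 0.57 ± 0.24 (SE, adjusted p = 0.266), and other liver cells transcribe both genes. The list summed to 71.6 to 111 CPM in control F1 and 144 to 165 in FR F1 libraries. Acinar cells of the pancreas express NR5A2, and Prss2, Ctrb1 and Amy2b had 0 counts in all libraries. Of the 7 acinar markers only Cela1 was tested, at 0.16 ± 0.16 (SE, adjusted p = 0.5997), and it made up most of a summed level of 83.3 to 113 CPM in control F1 and 107 to 120 in FR F1 libraries.

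Like the Kupffer cell and monocyte markers, those of endothelial, stellate and B cells had positive edgeR estimates in every tested gene, none of which passed. Over all tested genes the median log2 fold change was 0.00, and 17.9% had an unadjusted edgeR p under 0.05. Of all tested genes DESeq2 called 3.51% and limma-voom 0.791%. All 12 sinusoidal endothelial markers were above 0 (median 0.90, 8 with an edgeR p under 0.05 before adjustment; DESeq2 called 5 and limma-voom 1, Tek), and the list summed to 899 to 1071 CPM in FR F1 and 487 to 757 in control F1 libraries. The endothelial genes of smallest p were Tek at 1.88 ± 0.33 (SE, adjusted p = 0.0504) and Gpr182 at 1.31 ± 0.27 (SE, adjusted p = 0.0780), while the abundant Stab2 had 0.05 ± 0.13. The 10 stellate cell markers had a median of 0.81 (6 with an edgeR p under 0.05 before adjustment; DESeq2 called 3 and limma-voom 1, Dcn), led by Reln and Dcn (1.07 ± 0.20, adjusted p = 0.0588), with 785 to 940 summed CPM in FR F1 and 353 to 540 in control F1 libraries. Of 7 B cell markers 4 were tested and 0 passed, 2 having an unadjusted p under 0.05, with a median of 0.98, led by Jchain (1.89 ± 0.61, adjusted p = 0.182) and Ighm (1.34 ± 0.46, adjusted p = 0.200), and with 81.8 to 166 and 36.1 to 74.6 summed CPM in FR F1 and control F1 libraries. The clock activator gene Arntl had 3.90 to 8.11 CPM in the control F1 libraries and 43.5 to 56.8 CPM in the FR F1 libraries, and the labels give no time of collection. The part of cell composition or of the hour of collection in the values of the 9 factors was not tested.

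The genes whose profile over the 6 libraries lay nearest to those of Foxa3 and Cebpb, the factors with the smallest p, were sought among 11222 tested protein-coding genes, the other 294 having only clone-type symbols. The measure was the root mean square distance between mean-centred log2 CPM values, and it gives a description with no test. Nearest to Foxa3 were Por, the gene of the oxidoreductase that passes electrons to microsomal cytochromes P450, at a distance of 0.0782, and Ift122, an intraflagellar transport gene, at 0.111. Por had 422, 478 and 454 CPM in the control F1 libraries and 199, 182 and 275 CPM in the FR F1 libraries. It fell by 1.04 on the log2 scale (SE 0.16, adjusted p = 0.0385), a call that ended without FR replicate 1 (adjusted p = 0.184), FR replicate 2 (0.155) or control replicate 2 (0.138) and with the replicate block (0.0770). Ift122 had -0.82 ± 0.28 (SE, adjusted p = 0.195). Nearest to Cebpb were Mthfd2l, a mitochondrial folate enzyme gene with 1.45 ± 0.45 (SE, adjusted p = 0.171) at a distance of 0.120, and Hnrnpa0, an RNA-binding protein gene with 1.199 ± 0.39 (SE, adjusted p = 0.186) at 0.159.

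Some chromosome neighbours of Foxa3, Cebpa, Cebpb and Hnf4a were read as well, and those of the other factors are not given. Sympk, 839 base pairs from Foxa3, had an estimated log2 difference of -0.35 ± 0.17 (SE, adjusted p = 0.323), and Irf2bp1 on the other side, 6507 base pairs away, had -0.45 ± 0.15 (SE, adjusted p = 0.201). Both estimates lie on the same side of 0 as that of Foxa3 and nearer to 0, a difference in size that was not tested. Cebpg, 62720 base pairs from Cebpa, had 0.08 ± 0.23 (SE, adjusted p = 0.865), and Ptpn1, 241639 base pairs from Cebpb, had -0.35 ± 0.20 (SE, adjusted p = 0.375). R3hdml, 4196 base pairs from Hnf4a, had 7.07 ± 1.62 CPM in the control F1 livers and 3.04 ± 0.88 CPM in the FR F1 livers (SD, n = 3 per group), at -1.203 ± 0.38 (SE, adjusted p = 0.181).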

How the data were processed

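The authors deposited 1 table of raw counts per gene for 6 liver libraries. Per the submitters' processing notes, the tools were STAR, StringTie, HTSeq and DESeq2 and the build mm10, with neither versions nor roles. Annotation, strand setting and the treatment of shared or duplicate reads are not stated there. Columns were matched to samples by the code in each description, and 53620 of 53715 genes to symbols by Ensembl ID (GENCODE M21, mm10).

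The test was edgeR 4.0.16 under R 4.3.3 (filterByExpr, min.count 10, min.total.count 15, TMM, quasi-likelihood F test, Benjamini-Hochberg over 13022 genes). The fitted common dispersion of 0.0500 equals 22.4% variation between libraries. The SE is the log2 fold change divided by the square root of F. CPM are TMM-normalised. The fit was tested on simulated data. Replicates differed beyond counting noise, with 2.82 to 3.37 chi-square per degree of freedom between FR F1 libraries and 3.92 to 8.17 between control F1 libraries. Control replicates 1 and 3 differed most.

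The members, the 19 gene lists and the tests were chosen with earlier results of these data known. All 9 members are named. Of each list, up to 4 changed genes by smallest p are named, or 2 where none changed; of marker lists also abundant genes. One gene that this rule names is not reported here. Alternatives were DESeq2 1.42.0, limma-voom 3.58.1 with and without sample weights, other scalings and filters, abundant genes left out, each library left out, and a replicate block.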

Additional observations from a re-analysis of the deposited data

How the results depend on the processing

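The count of 0 of 9 factors held under limma-voom, 3 other scalings, a CPM of at least 1 in at least 3 libraries, genes near the ceiling left out, mitochondrial and Mup genes left out, and the replicate block. It became 2 with DESeq2, 3 with sample weights in limma-voom, 3 with no filter, 1 at an adjusted p under 0.1, and 0 to 1 with a library left out (Foxa3 without FR replicate 3, Cebpb without control replicate 1). The count over all genes was 109, and became 457 with DESeq2, 1199 with sample weights, 1251 with no filter, 322 at an adjusted p under 0.1 and 21 with the replicate block. With a library left out it ran from 7 to 651, the highest without control replicate 1. It was 17 where control replicate 2 was omitted, and 7, 11 and 45 where FR replicate 1, 2 or 3 was. Deviations from the group means correlated between same-numbered libraries at -0.0173, 0.108 and 0.153. Differently numbered libraries were not set against these, so whether replicate numbers pair the samples is not settled.

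Log2 fold changes past the threshold were -0.92 for Foxa3 and 1.30 for Cebpb with DESeq2. With sample weights they were -1.03 for Foxa3, 1.35 for Cebpb and -0.40 for Hnf4a, and with no filter -0.94 for Foxa3, 1.28 for Cebpb and 0.69 for Foxa2. The sign of Cebpa turned to -0.0312 with sample weights, to -0.0715 without FR replicate 3 and to -0.0616 without control replicate 3, and that of Onecut1 to 0.0243 without FR replicate 3 and 0.264 without control replicate 2. With each library left out, Foxa3 ranged from -1.16 to -0.81, Cebpb from 0.99 to 1.77, Cebpa from -0.0715 to 0.14 and Onecut1 from -0.92 to 0.26. The cause of these moves was not tested. Hnf4a, Foxa1, Foxa2, Foxa3, Cebpb, Nr5a2 and Prox1 kept their direction in all 17 alternatives, which for the 4 whose groups do not overlap is no sign of stability. The Foxa shares and the C/EBP ratio kept their direction in all 7 and 6 alternatives run. The Foxa3 share difference lay between -33.1 and -23.1 points with a library left out and at -26.2 with counts not divided by exon length.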
